A study of Homo sapiens with 12 samples.

Results

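The human alpha-like and beta-like globin genes are 10 of the 19447 gene symbols in the count table. They were taken by name, as the genes of both globin clusters, and earlier results of these data were known when they were chosen. The beta-like genes are HBE1 (embryonic epsilon), HBG1 and HBG2 (fetal gamma), HBD (adult delta) and HBB (adult beta). The alpha-like genes are HBZ (embryonic zeta), HBA1 and HBA2 (fetal and adult alpha), HBM (mu) and HBQ1 (theta).

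Hemoglobin is built from pairs of alpha-like and beta-like chains, each holding a heme group that binds oxygen. During development the genes of each cluster are used in turn, from the embryonic to the fetal and then the adult members. K562, an established chronic myeloid leukemia line that carries the BCR-ABL fusion, is known to make embryonic and fetal globins and little adult beta-globin.

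Poly(A)-enriched RNA was sequenced in 12 libraries, 3 in each of 4 groups. K562 was the untreated parental line, and K562+L was K562 given 6 µM lycorine, an alkaloid of Amaryllidaceae plants. K562/IM was an imatinib-resistant derivative of K562, raised by stepwise imatinib exposure and kept in 5 µM imatinib, without lycorine. The last group carried the label of K562/IM given lycorine and is called here the K562/IM+L-labelled libraries. How long lycorine was present before sequencing is not given in the sources used here, nor is whether imatinib was present at harvest. No source says that the 3 libraries of a group came from separate cultures, so p-values measure only the spread between these libraries, which may be technical. Total counts per library ran from 75093844 to 107344598.

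The group code of the K562/IM+L-labelled libraries differs between the sample labels and the drawings of the study, and the grouping was left as labelled. ABCB1, which encodes the drug pump P-glycoprotein, stood at 21.9 to 25.9 CPM (counts scaled to library size) in K562/IM and at 0.488 to 1.06 CPM in the K562/IM+L-labelled libraries. It stood at 1.68 to 1.86 CPM in K562 and 3.83 to 5.15 CPM in K562+L. These values do not settle which cells the group holds, and every direction given for the K562/IM+L-labelled libraries rests on their label. All 9 markers fixed for K562, which include HBG1, HBG2, HBE1 and HBZ, were detected in each group.

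The beta-like cluster lies on the minus strand of chromosome 11 and the alpha-like cluster on the plus strand of chromosome 16 (GRCh38.p14, RefSeq gene spans). Along chromosome 11 the order is HBB (5225464 to 5227071), HBD (5232838 to 5234483), HBG1 (5248269 to 5249857), HBG2 (5253188 to 5254781) and HBE1 (5268345 to 5269945). Along chromosome 16 it is HBZ (152644 to 154503), HBM (165978 to 166764), HBA2 (172876 to 173710), HBA1 (176680 to 177522) and HBQ1 (180459 to 181179). Each gene has 3 exons in the transcript used for its length. HBG1 and HBG2 are nearly identical in sequence, as are HBA1 and HBA2, and how reads were divided within each pair is not given in the sources used here, so values of the single members are uncertain.

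Promoter sequence was at hand for 2 of the 10 members, HBD and HBM, the least abundant gene of each cluster in K562. The 100 bases before the start are printed 5′ to 3′ on the gene's strand (RefSeq, GRCh38.p14), HBD from chr11:5234484-5234583 on the minus strand and HBM from chr16:165878-165977 on the plus strand. They are shown so that letters known from erythroid promoters can be read beside the levels. Capitals mark matches on either strand to 4 short motifs. They are TATAA (the core of the TATA box), CCAAT (the CCAAT box), CACCC (the core of sites that KLF1 is known to bind) and GATAA (the core of GATA factor sites).
HBD: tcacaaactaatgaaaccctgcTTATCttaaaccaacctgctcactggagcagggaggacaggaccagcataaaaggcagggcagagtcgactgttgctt
HBM: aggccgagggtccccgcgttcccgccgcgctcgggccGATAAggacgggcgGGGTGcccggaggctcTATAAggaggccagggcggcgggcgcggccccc
The HBD window held 1 match, GATAA read on the opposite strand. The HBM window held a TATA box core and a GATA core on its own strand and CACCC read on the opposite strand. None of these matches overlapped another. Of 35116 promoter windows of this length, 9.0% held the TATA box core, 18.1% the CCAAT box, 28.9% the KLF1 core and 8.03% the GATA core. The promoters of HBE1, HBG1, HBG2, HBB, HBZ, HBA1, HBA2 and HBQ1 were not used here.

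Globin transcripts took up a small part of the K562 libraries and a much larger part of the K562/IM+L-labelled libraries. The 10 genes held 0.594%, 0.719% and 0.827% of all counts in the 3 K562 libraries, 0.713% ± 0.116 (SD, n = 3). In K562+L they held 0.447%, 0.456% and 0.383%, and in K562/IM 0.287%, 0.304% and 0.288%. The K562/IM+L-labelled libraries held 4.83%, 5.19% and 3.80%. No group overlapped another in this share, which was not tested because the members were chosen with results known. In bulk RNA such as this, fewer cells making a transcript and less RNA per cell cannot be told apart.

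**Figure D1:**
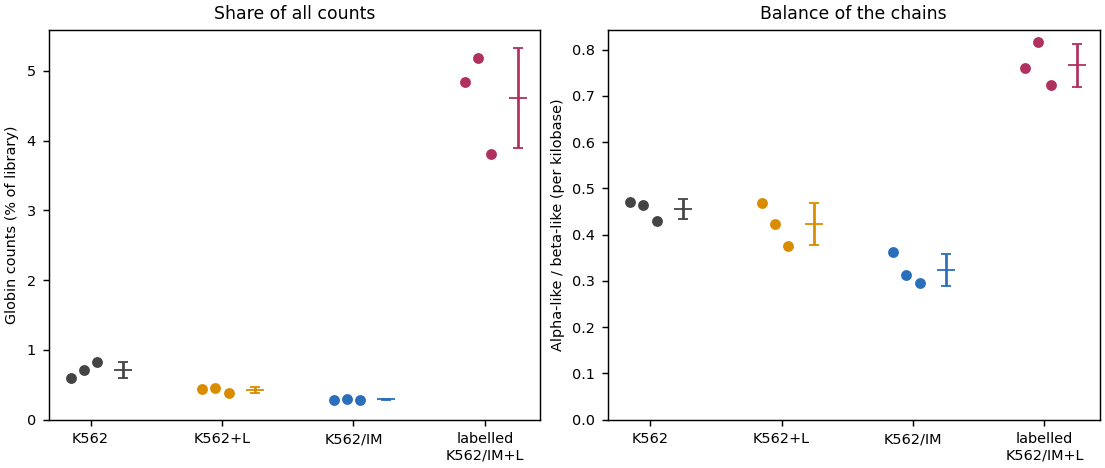
Left, percent of all counts in a library that fell on the 10 globin genes. Right, ratio of alpha-like to beta-like globin counts per kilobase of transcript. Points are libraries and the bar beside them is the mean ± SD (n = 3). The K562/IM+L-labelled libraries, at 3.80% to 5.19%, lie above the other 9 libraries, which reach 0.827%.

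Between genes, levels were compared as CPM per kilobase of transcript. In K562 the fetal genes led, HBG2 at 5421 ± 1049 and HBG1 at 2277 ± 521 (SD, n = 3). HBA1 at 1329 ± 169, HBA2 at 1173 ± 133 and HBZ at 1007 ± 242 followed, with differences among these neighbours within their SDs. HBE1 stood at 158 ± 29.3, HBQ1 at 61.3 ± 12.4, HBB at 30.3 ± 6.02 and HBD at 6.13 ± 0.304, and HBM had no count. K562+L kept this order of genes. In K562/IM, HBE1 at 883 ± 7.94 CPM per kilobase followed HBG2 at 1594 ± 73.3, and HBG1 at 695 ± 90.1 came next. In CPM not divided by length, HBE1 at 544 ± 4.89 and HBG1 at 541 ± 70.2 differed by less than the SD of HBG1. The order of HBE1 and HBG1 in K562/IM therefore depends on the HBG1 length, 779 bases as used and 587 inside its RefSeq span. HBB was below HBD in K562/IM. In the K562/IM+L-labelled libraries, HBZ was second, at 14736 ± 3430 behind HBG2 at 27673 ± 4443, and HBG1 at 10932 ± 2081 came next. The mean ± SD ranges of HBZ and HBG1 overlapped in that group, and the gap between them also depends on the HBG1 length.

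Across groups, each gene's own CPM followed 1 of 3 orders. For HBG1, HBG2, HBD, HBB, HBZ, HBA1, HBA2 and HBQ1 the order of the means was the K562/IM+L-labelled libraries, then K562, K562+L and K562/IM. Neighbouring groups in this order did not overlap, except that HBQ1 overlapped between K562+L and K562/IM. Of all genes tested, 63.6% had no overlap between the K562/IM+L-labelled libraries and K562, and 51.5% had none between K562 and K562+L. The share for K562+L and K562/IM was not computed. HBE1 was ordered differently, with K562/IM above K562 and K562+L. HBM was present in all 3 K562/IM+L-labelled libraries and at or near 0 elsewhere.

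**Figure D2:**
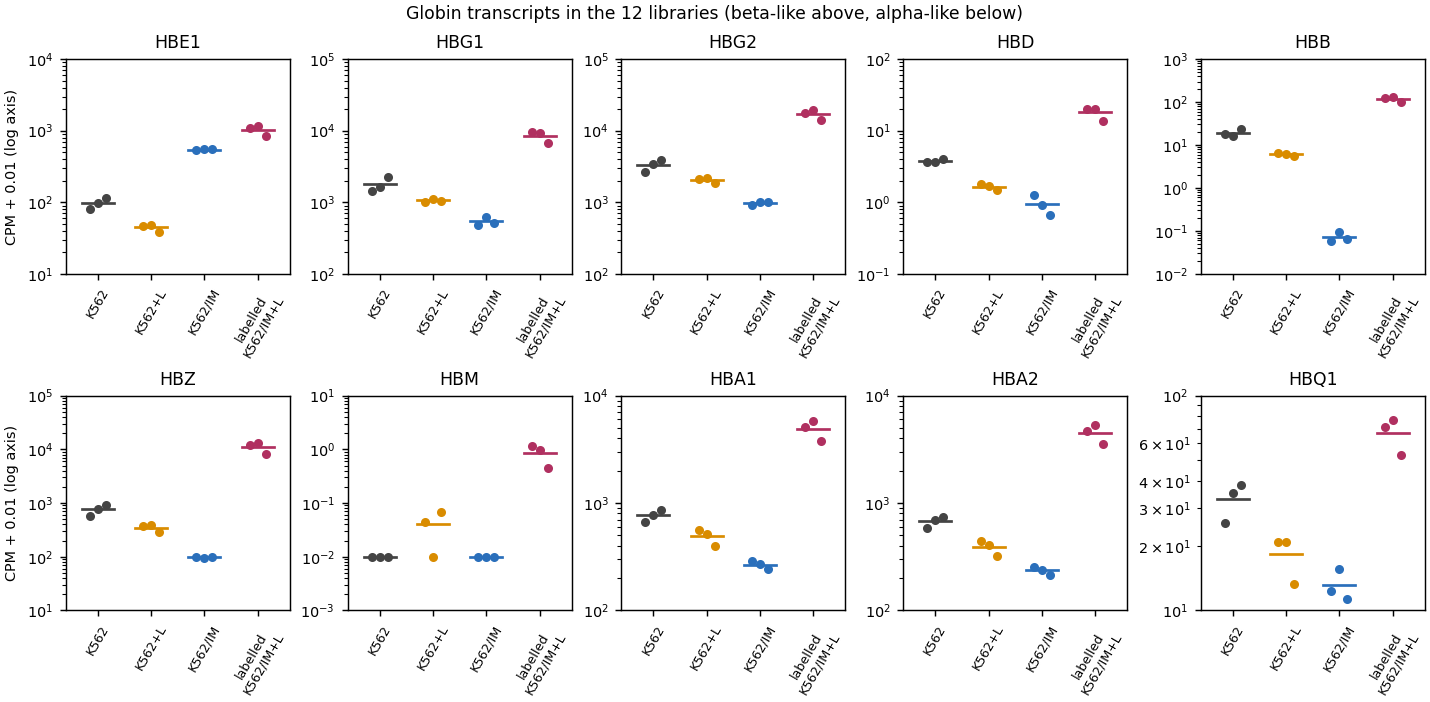
CPM of each globin gene in the 12 libraries, on a log axis with 0.01 added so that values of 0 can be drawn. Axis ranges differ between panels. Points are libraries and bars are group means (n = 3). HBE1 is the gene whose K562/IM libraries (538 to 547 CPM) lie above its K562 libraries (79.9 to 116 CPM).

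Lycorine treatment of K562 was compared with untreated K562 to ask what the compound did in the parental line. The globin genes were lower in K562+L, with adult HBB lowered most. All 9 members tested were lower at an adjusted p under 0.05 (edgeR quasi-likelihood test, Benjamini-Hochberg adjusted), and 4 of them, HBE1, HBD, HBB and HBZ, by over 1 on the log2 scale. Of all 12927 genes tested, 19.0% were lower at the same adjusted p (18.2% were higher) and 4.01% were lower with the fold as well. The median log2 fold change of the 9 was -0.85, beside -0.00012 over all genes tested. HBM was not tested, with 0 counts in K562 and 3, 0 and 6 in K562+L.

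HBB was at 17.9, 15.99 and 23.3 CPM in K562 and at 6.48, 6.28 and 5.45 CPM in K562+L. The groups did not overlap, and the log2 fold change was -1.65 ± 0.16 (SE, adjusted p = 0.000444, edgeR). HBD, the minor adult gene, was at 3.68, 3.70 and 4.02 CPM against 1.77, 1.69 and 1.46 CPM, a log2 fold change of -1.22 ± 0.17 (adjusted p = 0.00182). HBE1 was at 79.9, 96.9 and 116 CPM in K562 and at 46.5, 48.1 and 38.7 CPM in K562+L, and its log2 fold change was -1.14 ± 0.15 (adjusted p = 0.00151). Both embryonic genes fell by a like amount, since HBZ went from 566, 785 and 930 CPM to 370, 383 and 293 CPM, a log2 fold change of -1.13 ± 0.18 (adjusted p = 0.0033).

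The fetal and alpha genes fell by less than 1 on the log2 scale in K562+L. HBG1 changed by -0.75 ± 0.15, HBG2 by -0.71 ± 0.14, HBA1 by -0.65 ± 0.14, HBA2 by -0.79 ± 0.14 and HBQ1 by -0.85 ± 0.21 (log2 fold change ± SE), with adjusted p from 0.00396 to 0.0164 by edgeR. HBQ1, whose product is not known to enter hemoglobin, was at 25.4, 35.0 and 38.2 CPM in K562 and 20.8, 20.8 and 13.3 CPM in K562+L. Its adjusted p was 0.0542 without K562 replicate 2. In all 9 members the 3 libraries of K562+L lay below the 3 of K562, and 51.5% of all genes tested had no overlap between these groups in either direction. The count of members over 1 on the log2 scale went from 4 to 2 without K562 replicate 3.

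The imatinib-resistant line was compared with its parent to describe how the lines differed. Resistance, imatinib in the medium and culture history cannot be told apart in this comparison. K562/IM had more of the embryonic beta-like transcript HBE1 and less of every other globin that could be tested. Of 9 members tested, 1 was higher and 8 were lower (edgeR, adjusted p under 0.05), all by over 1 on the log2 scale. Across all 13406 genes tested, 30.1% were higher and 27.1% lower, and 13.9% and 5.29% with the fold as well. HBB passed the count filter through its K562 libraries alone, which leaves 8 members with at least 10 counts in all 6 libraries, 7 of them lower.

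HBE1 was at 538, 546 and 547 CPM in K562/IM against 79.9, 96.9 and 116 CPM in K562. The K562/IM libraries were close to one another and far above K562, with a 5.57-fold difference (log2 fold change 2.48 ± 0.13 SE, adjusted p = 5.93e-06, edgeR). The fetal genes went the other way. HBG2 was at 928, 995 and 1013 CPM in K562/IM and 2634, 3445 and 3906 CPM in K562, a log2 fold change of -1.77 ± 0.14 (adjusted p = 3.41e-05), and HBG1 changed by -1.71 ± 0.17 (adjusted p = 0.000113). Summed as 1 feature, HBG1 and HBG2 changed by -1.75 ± 0.14 on the log2 scale (adjusted p = 4.2e-05).

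Adult HBB was nearly absent from K562/IM. Its counts were 4, 8 and 6 in the 3 K562/IM libraries, against 1458, 1341 and 1809 in K562. The fitted log2 fold change was -8.22 and is given as a description, since HBB entered the test through its K562 libraries alone and had to differ. Low counts in this table pile up near multiples of 4, so these 3 values may stand for very few sequenced fragments and the size of the fold is imprecise. HBD, its neighbour in the cluster, fell by 2.02 ± 0.26 on the log2 scale (adjusted p = 0.000399), from 300, 310 and 312 counts to 105, 86 and 71 counts. HBB therefore made up 83.0% ± 2.06 of the adult transcripts HBB and HBD, per kilobase, in K562 and 6.58% ± 2.58 in K562/IM (SD, n = 3).

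Of the alpha-like genes, embryonic HBZ was lowered most in K562/IM. It was at 98.5, 94.97 and 100.5 CPM, against 566, 785 and 930 CPM in K562, and changed by -2.96 ± 0.17 on the log2 scale (adjusted p = 8.66e-06, edgeR). The embryonic genes of the clusters thus moved in opposite directions between these lines. HBA1 changed by -1.53 ± 0.11, HBA2 by -1.52 ± 0.11 and HBQ1 by -1.33 ± 0.18 on the log2 scale, with adjusted p of 2.41e-05, 2.05e-05 and 0.000539. None of the 8 members with at least 10 counts in all 6 libraries overlapped between K562/IM and K562, and 66.6% of all genes tested did not.

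The K562/IM+L-labelled libraries were compared with K562/IM to ask what lycorine did in the resistant line. Every globin gene was higher in the former. The K562/IM libraries are the reference here and were the compared group in the preceding comparison, so the values of these comparisons are not independent. All 10 members were tested and all were higher (edgeR, adjusted p under 0.05), 9 of them by over 1 on the log2 scale, beside 33.2% and 14.7% of the 13727 genes tested (33.6% were lower). HBB and HBM passed the count filter only through the K562/IM+L-labelled libraries and had to differ. The other 8 were higher as well, 7 of them by over 1 on the log2 scale, and the exception was HBE1. None of the 8 overlapped between the groups, and 73.4% of all genes tested did not.

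HBZ was at 11932, 13216 and 8228 CPM in the K562/IM+L-labelled libraries. These values were far from the 94.97 to 100.5 CPM of K562/IM, with a log2 fold change of 6.85 ± 0.21 (SE, adjusted p = 3.95e-07, edgeR). HBB had 9977, 9534 and 9309 counts against 4, 8 and 6, and its fitted log2 fold change of 10.88 is likewise a description. HBD, at 19.9, 20.4 and 13.7 CPM, was higher by 4.29 ± 0.28 on the log2 scale (adjusted p = 1.09e-05).

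The fetal and alpha genes were each about 4 higher on the log2 scale. HBG2 was at 17702, 19293 and 13978 CPM and HBG1 at 9614, 9280 and 6654 CPM in the K562/IM+L-labelled libraries, and their log2 fold changes were 4.14 ± 0.13 and 4.0 ± 0.17. HBA1 was at 5065, 5822 and 3793 CPM and HBA2 at 4674, 5375 and 3565 CPM, with log2 fold changes of 4.23 ± 0.17 and 4.29 ± 0.17. The 4 adjusted p ran from 5.12e-07 to 1.69e-06 (edgeR). HBQ1 was higher by less, 2.39 ± 0.17 on the log2 scale (adjusted p = 1.98e-05).

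HBE1 differed least. It was at 1093, 1164 and 843 CPM in the K562/IM+L-labelled libraries, above the 538 to 547 CPM of K562/IM, with a log2 fold change of 0.95 ± 0.12 (adjusted p = 0.000256, edgeR). HBM, a globin gene whose transcript is found in erythroid cells, had 91, 69 and 42 counts in the K562/IM+L-labelled libraries and none in K562 or K562/IM. Its mean of 0.851 CPM was 26.8-fold above a floor of 3 counts per library in K562/IM and 23.0-fold above that floor in K562. HBM entered these comparisons only through the K562/IM+L-labelled libraries. Since 3 counts may stand for less than 1 sequenced fragment here, these folds are descriptions and not lower bounds.

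Against K562, the parental line, the K562/IM+L-labelled libraries were again higher for all 10 members, each by over 1 on the log2 scale (edgeR, adjusted p under 0.05). Of 13307 genes tested, 28.2% were higher and 14.9% with the fold as well, and 27.8% were lower. HBM passed the filter through the K562/IM+L-labelled libraries alone, and the other 9 members had at least 10 counts in all 6 libraries. The log2 fold changes of those 9 ran from 1.01 ± 0.20 for HBQ1 (adjusted p = 0.00414) to 3.86 ± 0.26 for HBZ (adjusted p = 3.34e-05). HBE1 followed HBZ at 3.39 ± 0.19, and HBB, which was nearly absent from K562/IM, was at 2.63 ± 0.19. HBQ1 ran from 0.855 to 1.17 over the alternative runs, so whether it exceeds 1 depends on the run. This comparison shares its K562 libraries with the preceding comparisons of K562/IM and K562+L with K562, and shares the K562/IM+L-labelled libraries with the one before it. None of those 9 members overlapped between the groups, and 63.6% of all genes tested did not.

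**Figure D3:**
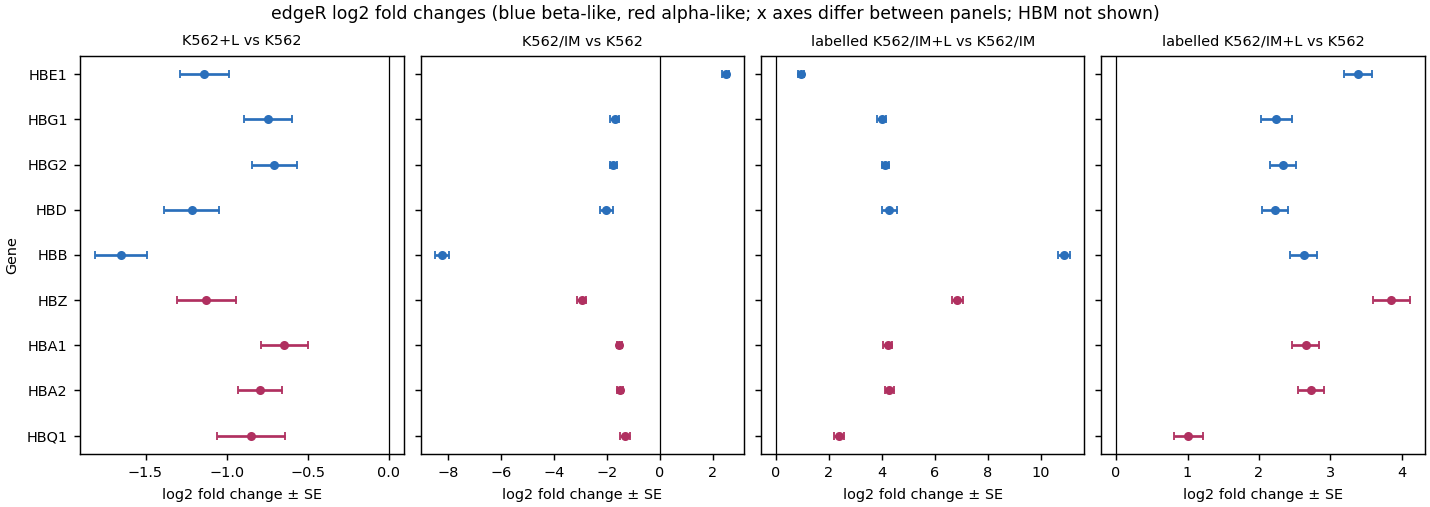
Log2 fold changes of 9 globin genes (edgeR) with their SEs in the 4 pairwise comparisons, beta-like genes in blue and alpha-like genes in red. The x axes differ between panels, and HBM is left out because K562 and K562/IM hold no counts of it. HBE1 alone is right of 0 in K562/IM against K562, at 2.48, and it has the smallest difference, 0.95, in the K562/IM+L-labelled libraries against K562/IM.

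The difference between the lycorine contrasts of the lines was tested over all 12 libraries. It is the log2 fold change of the K562/IM+L-labelled libraries against K562/IM, minus that of K562+L against K562. Of 10 members, 9 had a positive difference at an adjusted p under 0.05 (edgeR), as had 29.9% of the 13995 genes tested. The differences ran from 2.07 ± 0.21 for HBE1 (adjusted p = 5.09e-06) to 7.96 ± 0.30 for HBZ (adjusted p = 3.14e-09), leaving out HBB. HBB had 12.51, which rests on its 4, 8 and 6 counts in K562/IM. The tenth member, HBM, had no count in either untreated group, so that its fitted value depends on the prior count, and it did not pass by edgeR (adjusted p of 1).

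The composition of the beta-like transcripts differed most in K562/IM. Embryonic HBE1 made up 29.01%, 26.8% and 27.7% of beta-like counts per kilobase in K562/IM, a mean of 27.9% ± 1.10 (SD, n = 3). It made up 2.01% ± 0.0349 in K562, 1.51% ± 0.0717 in K562+L and 4.14% ± 0.0292 in the K562/IM+L-labelled libraries. Fetal HBG1 and HBG2 made up nearly all of the rest, 97.5% ± 0.106 in K562, 98.2% ± 0.0808 in K562+L, 72.1% ± 1.11 in K562/IM and 95.3% ± 0.0331 in the K562/IM+L-labelled libraries. The adult share stayed under 1% in each library, with means of 0.468% in K562, 0.258% in K562+L, 0.0512% in K562/IM and 0.541% in the K562/IM+L-labelled libraries. These shares are descriptions and carry no test.

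Among the alpha-like transcripts the share of embryonic HBZ went the other way. HBZ made up 11.97%, 12.1% and 14.1% in K562/IM, below its 27.9% ± 2.54 in K562 and 22.9% ± 1.04 in K562+L (SD, n = 3). In the K562/IM+L-labelled libraries it made up 48.1%, 47.2% and 45.9%, close to the 52.5% ± 1.14 held by HBA1 and HBA2 together. HBA1 and HBA2 held 70.3% ± 2.62 in K562, 75.4% ± 1.01 in K562+L and 84.9% ± 1.12 in K562/IM. HBQ1 held 1.71%, 1.67%, 2.38% and 0.403% on average in K562, K562+L, K562/IM and the K562/IM+L-labelled libraries, and HBM at most 0.00689% in any library.

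**Figure D4:**
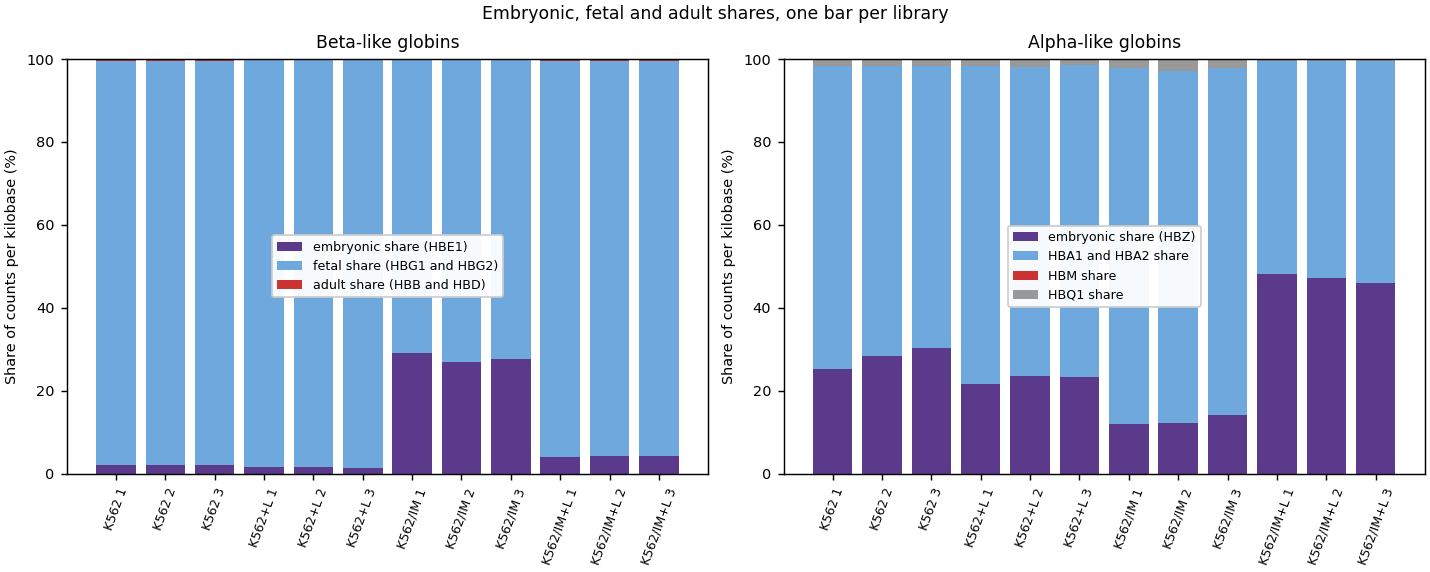
Shares of beta-like (left) and alpha-like (right) globin counts per kilobase of transcript, in percent, with a bar for each library. Embryonic HBE1 takes 26.8% to 29.01% of the beta-like bars in K562/IM and 1.43% to 4.17% in the other 9 libraries, while embryonic HBZ is lowest in K562/IM and highest in the K562/IM+L-labelled libraries.

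Hemoglobin needs alpha-like and beta-like chains in balance, and at the RNA level the ratio of their summed counts per kilobase was below 1 in all 12 libraries. It was 0.455 ± 0.0216 in K562, 0.423 ± 0.0458 in K562+L and 0.324 ± 0.0343 in K562/IM (SD, n = 3). It was highest in the K562/IM+L-labelled libraries, at 0.760, 0.815 and 0.723. The K562 and K562+L libraries overlapped in this ratio, and K562/IM (0.295 to 0.362) lay below both.

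Genes that act on the globins were read from a fixed list of 35 regulators, of which 34 were tested. In K562+L against K562, 7 were higher and 4 lower (20.6% and 11.8%, beside 18.2% and 19.0% of all genes tested). In K562/IM against K562, 5 were higher and 11 lower (14.7% and 32.4%, beside 30.1% and 27.1%). The K562/IM+L-labelled libraries had 13 higher and 12 lower against K562/IM (38.2% and 35.3%, beside 33.2% and 33.6%) and 8 higher and 13 lower against K562 (23.5% and 38.2%, beside 28.2% and 27.8%). AHSP, the chaperone that keeps free alpha-globin stable, was below K562 in K562+L and K562/IM and above it in the last group. It stood at 17.5 ± 3.42 CPM in K562, 3.91 ± 0.666 in K562+L, 8.31 ± 0.243 in K562/IM and 201 ± 39.3 in the K562/IM+L-labelled libraries (SD, n = 3). Its log2 fold changes were -2.16 (adjusted p = 0.000264) in K562+L and -1.08 (adjusted p = 0.000504) in K562/IM against K562, and 4.62 (adjusted p = 6.89e-07) in the K562/IM+L-labelled libraries against K562/IM, by edgeR.

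Transcription factors of the list differed from one another. GATA1, the factor that binds GATA motifs in both clusters, was at 230 ± 37.7, 206 ± 23.1, 196 ± 2.41 and 250 ± 32.6 CPM in K562, K562+L, K562/IM and the K562/IM+L-labelled libraries, and of the pairwise comparisons passed only the last group against K562/IM (log2 fold change 0.38, adjusted p = 0.011, edgeR). KLF1, an activator of adult beta-globin, did not pass in K562+L (log2 fold change 0.32, adjusted p = 0.133). It was lower in K562/IM than in K562 (-0.66, adjusted p = 0.00409) and higher in the K562/IM+L-labelled libraries than in K562/IM (2.01, adjusted p = 5.36e-06).

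MYB, a progenitor factor known to hold back fetal globin, was lowest where globins were highest. It was at 173 ± 20.2 CPM in K562, 153 ± 7.98 in K562+L, 255 ± 14.2 in K562/IM and 26.2 ± 2.005 in the K562/IM+L-labelled libraries. The last group differed from K562/IM by -3.26 on the log2 scale (adjusted p = 3.26e-07, edgeR). MYB did not pass in K562+L against K562 (-0.18, adjusted p = 0.213), where 9 globins fell. SOX6, another factor of the list, moved opposite to MYB between K562/IM and K562, with a log2 fold change of -3.75 (adjusted p = 1.64e-05). It did so again in the K562/IM+L-labelled libraries against K562/IM, at 3.32 (adjusted p = 1.77e-05, edgeR). The part of these factors in the globin differences was not tested. ZBTB7A, a repressor of fetal globin, stood between 40.1 and 48.0 CPM on average in the 4 groups and did not pass in any comparison (adjusted p from 0.419 to 0.936). BCL11A, another known repressor of fetal globin, had 0, 8, 4 and 4 counts over the 3 libraries of K562, K562+L, K562/IM and the K562/IM+L-labelled libraries, too few to test.

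Heme synthesis, which supplies the group that globin chains carry, was read from 11 genes. In K562+L against K562, 2 were higher and 1 lower, beside 18.2% and 19.0% of all genes tested. In K562/IM 1 was higher and 8 were lower than in K562, beside 30.1% and 27.1%. In the K562/IM+L-labelled libraries 10 were higher and 0 lower than in K562/IM and likewise against K562, where 33.2% and 28.2% of all genes tested were higher. ALAS2, the erythroid form of the first enzyme of the path, was at 43.6 ± 5.31, 48.9 ± 1.97, 17.5 ± 0.906 and 1095 ± 116 CPM in K562, K562+L, K562/IM and the K562/IM+L-labelled libraries. It did not pass in K562+L (log2 fold change 0.16, adjusted p = 0.262, edgeR), where 9 globins fell.

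Red cell membrane genes, fixed as 15 markers, were called 4 higher and 3 lower in K562+L against K562, beside 18.2% and 19.0% of all genes tested. In K562/IM against K562, 1 was higher and 11 were lower, beside 30.1% and 27.1%. All 15 were higher in the K562/IM+L-labelled libraries against either line, beside 33.2% of all genes tested against K562/IM and 28.2% against K562. Their summed CPM was 2639 to 2750 in K562, 2889 to 3170 in K562+L, 1603 to 1722 in K562/IM and 7299 to 7710 in the K562/IM+L-labelled libraries. SLC4A1, the band 3 anion exchanger, had 36 counts over the 3 K562/IM libraries and 242617 over the 3 labelled K562/IM+L.

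Markers of other blood cells also differed between groups, and single genes made up much of each sum. The summed CPM of 8 megakaryocyte and platelet genes was 288 to 426 in K562, 220 to 334 in K562+L, 254 to 259 in K562/IM and 676 to 1042 in the K562/IM+L-labelled libraries, with 2, 2, 3 and 1 of them at 0 throughout. GP1BB, a subunit of the platelet receptor for von Willebrand factor, made up most of it, at 362, 284, 55.5 and 831 CPM on average, except in K562/IM. ITGA2B, the platelet integrin alpha chain, had another order, at 4.83, 3.06, 186 and 18.05 CPM. Of 5 tested, 2 were higher and 2 lower in the K562/IM+L-labelled libraries than in K562/IM, beside 33.2% and 33.6% of all genes tested. Against K562, 1 was higher and 1 lower in K562+L, 3 and 1 in K562/IM, and 4 and 0 in the K562/IM+L-labelled libraries. The all-gene shares against K562 were 18.2% and 19.0%, 30.1% and 27.1%, and 28.2% and 27.8%, in that order. With 5 genes tested, the list is too short to read a difference from these shares.

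The summed CPM of 9 granulocyte and monocyte genes was 110 to 115 in K562, 109 to 127 in K562+L, 166 to 175 in K562/IM and 76.8 to 82.8 in the K562/IM+L-labelled libraries, with 3, 3, 3 and 2 at 0. LYZ (lysozyme) made up nearly all of it, at 111, 120, 166 and 78.1 CPM on average. Against K562, 0 were higher and 1 lower of 4 tested in K562+L, and of 5 tested 2 and 0 in K562/IM and 2 and 1 in the K562/IM+L-labelled libraries. The 2 higher in the last were CSF3R and ITGAM, at 0.603 and 0.412 CPM, and LYZ was the lower gene. Against K562/IM the last group had 0 higher and 2 lower. The all-gene shares given for the megakaryocyte and platelet genes apply, and this list is also too short to read a difference from them. The sum of 7 lymphocyte genes was 2.32 to 3.50, 0.543 to 1.36, 24.0 to 25.9 and 0.830 to 1.20 CPM, with 2, 3, 1 and 4 at 0, and CD3D led it in K562/IM at 22.03 CPM. The part of these markers in the globin differences was not tested.

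Globins outside the clusters were scarcely present. CYGB (cytoglobin) was at 0.190 ± 0.0301 CPM in K562/IM and 0.827 ± 0.321 in the K562/IM+L-labelled libraries (SD, n = 3), a log2 fold change of 2.13 (adjusted p = 0.00379, edgeR). In K562/IM against K562 it did not pass (adjusted p = 0.0904). MB (myoglobin) had 4 counts in all, ADGB (androglobin) 4 in K562 and 18 in K562/IM, and NGB (neuroglobin) none.

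The other genes within 100 kb of each cluster were examined after values were seen. On the alpha side 9 were in the table and 8 were tested. In K562+L 0 were higher and 2 lower, and in K562/IM 1 was higher and 2 lower, each against K562, beside all-gene shares of 18.2% and 19.0% and of 30.1% and 27.1%. In the K562/IM+L-labelled libraries 6 were higher and 1 lower than in K562/IM, and 4 higher and 1 lower than in K562, beside all-gene shares of 33.2% and 33.6% and of 28.2% and 27.8%. NPRL3, whose introns hold the enhancers of the alpha-globin genes, was at 82.2 ± 3.20 CPM in K562/IM and 358 ± 38.1 in the K562/IM+L-labelled libraries, a log2 fold change of 2.15 ± 0.093 (SE, adjusted p = 1.76e-06, edgeR). RHBDF1 changed by 2.19 ± 0.087, MPG by 1.02 ± 0.13 and POLR3K by -0.36 ± 0.11.

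On the beta side the neighbours are olfactory receptor genes, 7 in the table and 4 of them tested. OR51B5, beyond HBE1 on the cluster's embryonic side, was at 95.3 ± 6.79 CPM in K562, 84.3 ± 9.92 in K562+L, 32.5 ± 1.51 in K562/IM and 77.8 ± 7.98 in the K562/IM+L-labelled libraries (SD, n = 3). It was lower in K562/IM than in K562 by a log2 fold change of -1.55 ± 0.083 (adjusted p = 5.84e-06, edgeR), where HBE1 was higher. Longer annotated transcripts of HBE1 reach into the span of OR51B5, and how such reads were counted is not given in the sources used here. Over the 4 tested neighbours, 2 were higher and 0 lower in K562+L, 0 and 1 in K562/IM, each against K562, and 2 and 1 in the K562/IM+L-labelled libraries against K562/IM. Against K562 the last group had 1 higher and 2 lower. The all-gene shares given for the alpha side apply, and 4 genes are too few to read a difference from them.

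**Figure D5:**
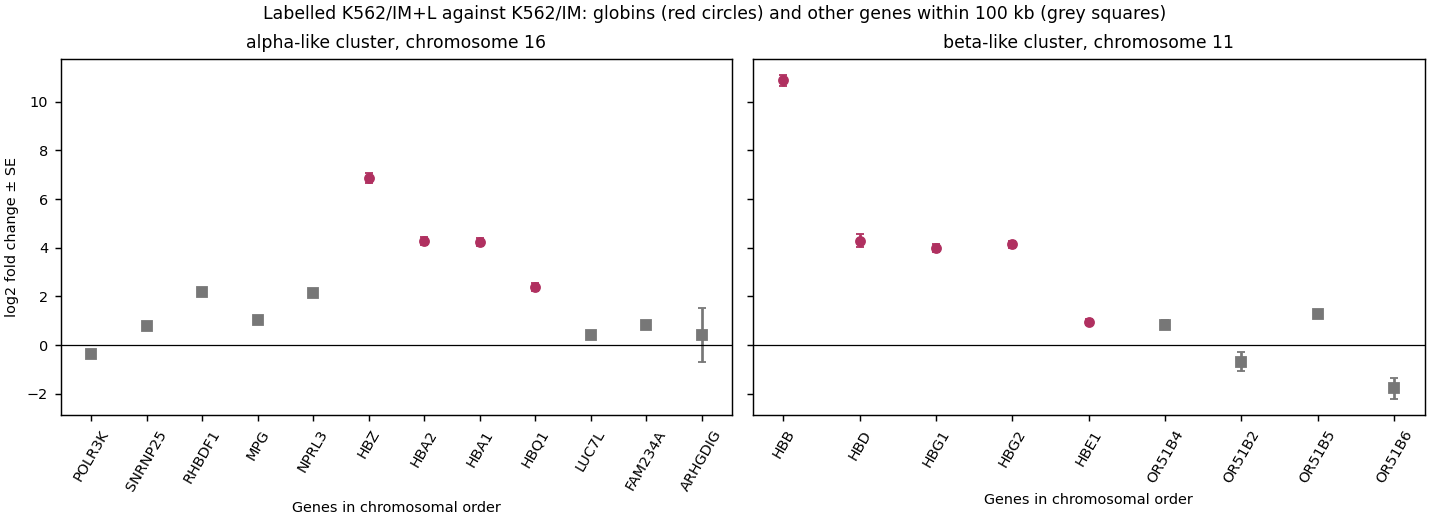
Log2 fold change ± SE (edgeR) in the K562/IM+L-labelled libraries against K562/IM for globin genes (red circles) and the other tested genes within 100 kb (grey squares), in chromosomal order and not to distance, with HBM left out. HBB, at 10.88, passed the count filter only through the K562/IM+L-labelled libraries and had to differ. The other globins drawn reach 6.85 (HBZ), and the neighbours run from -1.78 (OR51B6) to 2.19 (RHBDF1).

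Genes with a pattern like that of the summed globins were sought among 11658 genes, by the root mean square distance between the 4 centred group means of log2(CPM + 1). The nearest were PKLR (distance 0.0918), RHCE (0.129), BCAM (0.243), GYPB (0.243) and SERPINF1 (0.295). PKLR encodes the red cell form of pyruvate kinase, RHCE and BCAM carry blood group antigens, and GYPB is glycophorin B. PKLR was at 76.9, 43.0, 29.5 and 447 CPM on average in K562, K562+L, K562/IM and the K562/IM+L-labelled libraries, and RHCE at 19.8, 12.6, 8.54 and 135 CPM. The likeness is over 4 group means and carries no test.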

How the data were processed

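Messenger RNA of K562-derived cells was sequenced in 12 libraries, and groups were taken from the sample labels. The authors deposited unnormalized counts per gene symbol. Their processing notes name FastQC, STAR, StringTie, DESeq2 and hg38. Versions, annotation and strand setting are not given in the sources used here. Of 23289 values from 1 to 25, 67.9% were a multiple of 4 or 1 above, beside 52.0% of those whole numbers, so that counting noise may exceed what the totals give.

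Each pairwise comparison used its 6 libraries, filterByExpr (minimum count 10), TMM and the quasi-likelihood test of edgeR 4.0.16 in R 4.3.3, adjusted by Benjamini-Hochberg over all genes tested. The SE is the absolute log2 fold change over the square root of F. DESeq2 1.42.0 was an alternative, and others were scaling, filter, replicate block, summed paralogs and left-out libraries. On simulated data 200 of 200 changed genes were recovered for K562+L against K562, with 12 false calls among 12835 genes. The simulation used independent counts with the same dispersion for every gene, so it checks the code and not the error rates in these data. CPM used TMM over the 12 libraries. Lengths are those of the shortest principal transcripts of GENCODE 29. An exact permutation test of 3 against 3 cannot go below p = 0.1.

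The members and lists were chosen with earlier results of these data known. Named were the 10 globins, AHSP, GATA1, KLF1, BCL11A, MYB, ZBTB7A, SLC4A1, ALAS2, 4 other globins and the 5 genes most alike. Genes near the clusters, the naming of SOX6, and RefSeq-span lengths were added after values were seen.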

Additional observations from a re-analysis of the deposited data

Results flagged for a closer look

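For 9 globin genes the lycorine contrast differed between the lines by a test of the difference itself (edgeR quasi-likelihood interaction over 12 libraries, Benjamini-Hochberg adjusted). The difference, the K562/IM lines' contrast minus that of K562 on the log2 scale, was 2.07 for HBE1, 4.72 for HBG1, 4.83 for HBG2, 5.48 for HBD and 12.51 for HBB among the beta-like genes. It was 7.96 for HBZ, 4.85 for HBA1, 5.06 for HBA2 and 3.21 for HBQ1 among the alpha-like genes. Of the 13995 genes tested, 29.9% had a positive difference at an adjusted p under 0.05. In each of the 9 the 3 K562+L libraries lay below K562 and the 3 K562/IM+L-labelled libraries lay above K562/IM. Of all genes tested, 51.5% had no overlap in either direction in the K562 contrast and 73.4% in that of the K562/IM lines. The share of genes with both was not counted. All 9 rest on the label of the last group, and that of HBB also on 4, 8 and 6 counts in K562/IM.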

How the results depend on the processing

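No member's log2 fold change changed sign under any alternative run. Counts of members called kept within 1.5 times their values in 89 of 89 other alternatives and in 59 of 60 left-out libraries. The exception was K562+L against K562 with a log2 fold change over 1, where the count of 4 ran from 2 (without K562 replicate 3) to 5 (without K562 replicate 1). HBM, with no count in either untreated group, passed the difference between lines under DESeq2 alone (5.01, adjusted p = 0.0415, beside 1 in edgeR). Deviations of same-numbered libraries from their group means had correlations from -0.595 to 0.435 between groups, with 4 of 18 over 0.1. Differently numbered libraries were not compared, so that these values do not settle whether libraries pair. A replicate block left the counts at 9, 9, 10 and 10 in the pairwise comparisons and 9 for the difference. Upper-quartile scaling shifted the median of all genes by 0.151 in the K562/IM+L-labelled libraries against K562 (to 0.171) and by 0.128 in the difference (to 0.108). HBB and HBM are limited by depth in K562/IM.

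Shares moved with the length used, in the group order K562, K562+L, K562/IM and labelled K562/IM+L. With counts per gene, HBE1 was 1.87%, 1.41%, 26.4% and 3.88% of beta-like and the fetal genes 97.7%, 98.3%, 73.6% and 95.6%. The adult share was then 0.244% in K562+L and 0.515% in the last group. HBZ was 33.7%, 28.0%, 16.1% and 53.8% of alpha-like, so that it exceeded HBA1 and HBA2 (64.8%, 70.5%, 81.8% and 45.9%) in the last group. HBQ1 was 1.46% and 1.45% in K562 and K562+L and 0.327% in the last group, and the alpha to beta ratio in K562 was 0.430. With exons kept inside RefSeq spans, chosen after values were seen, HBE1 was 1.78%, 1.34%, 25.4% and 3.69%, and the fetal genes 97.8%, 98.4%, 74.6% and 95.8%. The adult share was 0.228% in K562+L and 0.481% in the last group, and the ratio was 0.403 in K562, 0.375 in K562+L and 0.682 in the last group. Relative to scaled non-globin totals, globins were 0.266% in K562/IM.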

Other observations

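Within the near-identical gene pairs, the division of counts per kilobase was steady while the summed level varied widely. HBG2 held 67.1% to 72.8% of HBG1 and HBG2 in the 12 libraries. The lengths used, 779 bases for HBG1 and 614 for HBG2, make this part of HBG2 larger than its part of the counts. HBA1 held 52.8% to 53.6% of HBA1 and HBA2 in K562, 52.9% to 53.1% in K562/IM and 51.5% to 52.0% in the K562/IM+L-labelled libraries. In K562+L it held 55.2% to 55.9%, above the other 9 libraries. These divisions were not tested, and how reads were assigned within the pairs is not given in the sources used here.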
